A study of Mus musculus with 12 samples.

Results

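The Fc gamma receptor family comprises the cell surface receptors that bind the constant (Fc) part of IgG antibodies, here taken with the chain they signal through and the related neonatal Fc receptor. Its 6 members were chosen by name, as the rows of the count matrix whose Ensembl identifier carries the symbol Fcgr1, Fcgr2b, Fcgr3, Fcgr4, Fcer1g or Fcgrt, and all 6 were found among 55401 genes. All 6 passed the filter on low counts, which kept 20818 genes, and their counts ran from 313 (Fcgr4 in Control replicate 3) to 6123 (Fcgr2b in ASC_As300 replicate 2).

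RNA from 12 tumors was sequenced after poly(A) selection, 21 days after 125000 TC2Ras cells, a mouse prostate cancer line, were implanted under the skin of both flanks of mice. Control tumors grew from TC2Ras cells alone in mice that drank water with 0 ppb inorganic arsenic (iAs), and As300 tumors from the same cells in mice given 300 ppb iAs. ASC tumors grew from TC2Ras cells mixed with 1% adipose stromal cells (ASC) at 0 ppb iAs, and ASC_As300 tumors from the mixture at 300 ppb iAs. Each group held 3 tumors, with both flanks of a mouse combined, and every mouse had been kept on low-arsenic chow before implantation. The ASC were primary cells of male mice that carry GFP under the ubiquitin C promoter. The tumor cells were a single line throughout, and the strain, sex and age of the hosts are not given in the sources used here. The sample labels name the cell type as the stromal cells, whereas the libraries were made from whole tumors. The prostate marker Pbsn was at 0 counts in 12 of the 12 tumors, while the epithelial keratin Krt8 was present in all of them, at 24.1 to 337 CPM, counts scaled to a common library size by the TMM method.

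Macrophages, monocytes, neutrophils and natural killer (NK) cells carry activating Fc gamma receptors, which bind antibody-coated targets and trigger phagocytosis or killing through tyrosine motifs (ITAM) in the shared gamma chain encoded by Fcer1g. The inhibitory receptor encoded by Fcgr2b carries the opposing motif (ITIM) in its own tail and raises the threshold of the same cells and of B cells, so that the balance of both kinds sets the response to IgG. Interferon gamma is a known inducer of the high affinity receptor Fcgr1 and of Fcgr4 in mouse myeloid cells.

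The genes lie in 3 places of the GRCm38 genome. Fcgr2b (chr1:170958617-170976547, minus strand), Fcgr4 (chr1:171018920-171029761, plus strand), Fcgr3 (chr1:171051174-171064935, minus strand) and Fcer1g (chr1:171229572-171234365, minus strand) are neighbours on chromosome 1. Fcgr1 lies at chr3:96282909-96293969 and Fcgrt at chr7:45092990-45103851, both on the minus strand. Fcgr2b and Fcgr3 have in common 166 of their 50-base transcript windows, which is 2.92% of those of Fcgr2b and 9.58% of those of Fcgr3, and reads from there could have been counted for either gene. No other pair among the members had such a window in common.

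The promoters of the 3 members that rose with ASC, and that of Fcgr2b, which was not called, are shown for comparison. Each is the stretch of 250 bases before the RefSeq transcription start (GRCm38.p6), read 5′ to 3′ on the strand of the gene. Capitals mark matches to 4 motifs searched on both strands: the interferon gamma activated site TTCNNNGAA (GAS), its wider form with 1 more base between TTC and GAA, the interferon response element (ISRE), here a pair of GAAA runs spaced by 2 bases, and GAGGAA, a core bound by the myeloid factor PU.1. No marked match overlaps another.
Fcgr4, chr1:171018676-171018925, plus strand: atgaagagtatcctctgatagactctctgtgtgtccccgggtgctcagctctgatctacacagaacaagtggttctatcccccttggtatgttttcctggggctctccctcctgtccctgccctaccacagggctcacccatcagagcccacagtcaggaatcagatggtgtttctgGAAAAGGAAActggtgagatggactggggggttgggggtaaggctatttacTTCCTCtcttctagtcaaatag
Fcgr1, chr3:96293970-96294219, minus strand: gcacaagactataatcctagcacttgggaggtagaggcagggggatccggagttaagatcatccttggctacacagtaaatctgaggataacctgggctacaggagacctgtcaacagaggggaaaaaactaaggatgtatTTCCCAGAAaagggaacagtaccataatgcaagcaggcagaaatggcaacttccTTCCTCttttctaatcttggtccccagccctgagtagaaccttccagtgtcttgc
Fcer1g, chr1:171234350-171234599, minus strand: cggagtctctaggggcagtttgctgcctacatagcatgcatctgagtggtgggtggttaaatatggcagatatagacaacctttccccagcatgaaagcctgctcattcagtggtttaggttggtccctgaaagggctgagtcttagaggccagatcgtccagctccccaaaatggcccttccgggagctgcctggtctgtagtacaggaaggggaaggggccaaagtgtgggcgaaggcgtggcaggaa
Fcgr2b, chr1:170976072-170976321, minus strand: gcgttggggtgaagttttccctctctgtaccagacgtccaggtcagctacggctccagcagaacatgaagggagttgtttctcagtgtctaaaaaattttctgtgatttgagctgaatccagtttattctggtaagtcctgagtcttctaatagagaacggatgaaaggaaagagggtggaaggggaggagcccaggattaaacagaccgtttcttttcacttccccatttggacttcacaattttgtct

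In the promoter of Fcgr4 the ISRE letters GAAAAGGAAA begin at -73 and the reverse of the PU.1 core at -22, counted from the start site. The promoter of Fcgr1 holds the GAS letters TTCCCAGAA from -109 and the reverse of the PU.1 core from -55. Both windows of Fcgr3, from 2 annotated starts, hold the PU.1 core alone, and those of Fcer1g, Fcgr2b and Fcgrt hold none of the 4 motifs. Of 27025 promoters of this length, 7.18% hold the GAS letters, 5.86% the wider form, 3.04% the ISRE letters and 23.1% the PU.1 core. These matches describe the letters of the windows and no binding was measured.

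Whether ASC or iAs alter the receptors that read antibody in the tumor was examined by comparing the 4 groups. Calls rest on edgeR's quasi-likelihood test, at an adjusted p-value (Benjamini-Hochberg, over all genes) under 0.05 together with a change of 1.5-fold or more. With ASC against Control, 3 of 6 members were called, all higher, whereas 0.706% of all genes tested were called higher and 0.0144% lower. The ASC and Control tumors did not overlap for 4 of 6 members, all higher, beside 9.94% of all genes higher and 9.01% lower. In ASC_As300 against Control the same 3 members were called higher, beside 0.783% of all genes higher and 0.024% lower, and 4 did not overlap, beside 13.5% higher and 12.2% lower. In bulk tumor RNA, a difference in the number of cells that carry a receptor and a difference in RNA per cell cannot be told apart.

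Among the activating receptors, Fcgr4, a receptor for IgG2a, IgG2b and IgG2c, had the largest fold change of the 6 members in ASC against Control. Its level was 9.13, 8.10 and 6.79 CPM in the 3 Control tumors and 44.5, 35.2 and 46.0 CPM in the 3 ASC tumors. It was 12.1, 6.81 and 9.18 CPM in As300 and 47.0, 52.1 and 65.8 CPM in ASC_As300. The lowest tumor with ASC lay well above the highest without, and Control and As300 overlapped. Fcgr4 rose 5.23-fold in ASC against Control (log2 fold change 2.39 ± 0.21 SE, edgeR adjusted p = 0.000209) and 6.86-fold in ASC_As300 against Control (2.78 ± 0.21, adjusted p = 8.41e-05).

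Fcgr1, the high affinity receptor for IgG, was at 25.9, 27.9 and 20.4 CPM in Control and at 54.4, 61.4 and 40.0 CPM in ASC. In As300 its level was 24.0, 25 and 25.6 CPM, and in ASC_As300 39.9, 54.8 and 51.0 CPM. The 6 tumors with ASC were again all above the 6 without, and the As300 tumors lay within the range of Control. Fcgr1 rose 2.10-fold in ASC (log2 fold change 1.07 ± 0.17, adjusted p = 0.00718) and 1.97-fold in ASC_As300 (0.98 ± 0.17, adjusted p = 0.0132), each against Control in edgeR. The call in ASC was lost when only the 6 tumors compared were fitted (adjusted p = 0.0532). In ASC_As300 it was lost without Control replicate 3, ASC_As300 replicate 2 or ASC_As300 replicate 3, where the log2 fold change was 0.87, 0.89 and 0.94.

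Fcgr3, a low affinity activating receptor of myeloid and NK cells, had levels of 66.0, 73.1 and 65.3 CPM in Control and 90.7, 118 and 83.5 CPM in ASC. In As300 it was at 72.6, 64.2 and 71.1 CPM and in ASC_As300 at 84.4, 104 and 86.1 CPM. Every tumor with ASC exceeded every tumor without, but by less than for Fcgr4 or Fcgr1. The log2 fold change was 0.51 ± 0.12 in ASC (adjusted p = 0.0935) and 0.43 ± 0.12 in ASC_As300 (adjusted p = 0.147), and neither was called.

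Fcer1g, whose gamma chain holds the activating receptors at the cell surface and carries their signal, was at 54.7, 45.5 and 46.8 CPM in Control and 85.6, 102 and 86.8 CPM in ASC. It was at 55.5, 57.6 and 55.5 CPM in As300 and at 71.6, 86.0 and 97.6 CPM in ASC_As300. No tumor with ASC was as low as the highest without, and the 3 As300 tumors were slightly above the 3 Control tumors. Fcer1g rose 1.87-fold in ASC (log2 fold change 0.90 ± 0.12, adjusted p = 0.00202) and 1.74-fold in ASC_As300 (0.80 ± 0.12, adjusted p = 0.00468) against Control in edgeR.

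The inhibitory receptor Fcgr2b was at 97.0, 107 and 86.0 CPM in Control and at 117, 134 and 85.9 CPM in ASC. In As300 it was at 93.5, 80.9 and 91.0 CPM and in ASC_As300 at 107, 121 and 101 CPM. These ranges overlapped between ASC and Control, since ASC replicate 3 was as low as the lowest Control tumor. The log2 fold change was 0.22 ± 0.14 in ASC (adjusted p = 0.503) and 0.18 ± 0.14 in ASC_As300 (adjusted p = 0.577). With 2 SE on either side these estimates reached from -0.07 to 0.50 and from -0.10 to 0.47, so that a change of 1.5-fold lay outside both. In ASC_As300 against As300 the range was 0.03 to 0.60, which reached just past 1.5-fold, and the groups did not overlap.

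The neonatal Fc receptor Fcgrt, which returns IgG and albumin from endosomes to the circulation and pairs with beta-2-microglobulin, was at 47.7, 57.4 and 37.8 CPM in Control. Its level was 45.5, 96.2 and 46.1 CPM in ASC, 65.5, 57.0 and 42.0 CPM in As300 and 42.0, 58.8 and 41.1 CPM in ASC_As300. All 4 groups overlapped, and ASC replicate 2 stood above the other 11 tumors. The log2 fold change in ASC was 0.39 ± 0.28 (adjusted p = 0.544) and turned to -0.06 without ASC replicate 2, and that in ASC_As300 was -0.01 ± 0.28 (adjusted p = 0.990).

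**Figure D1:**
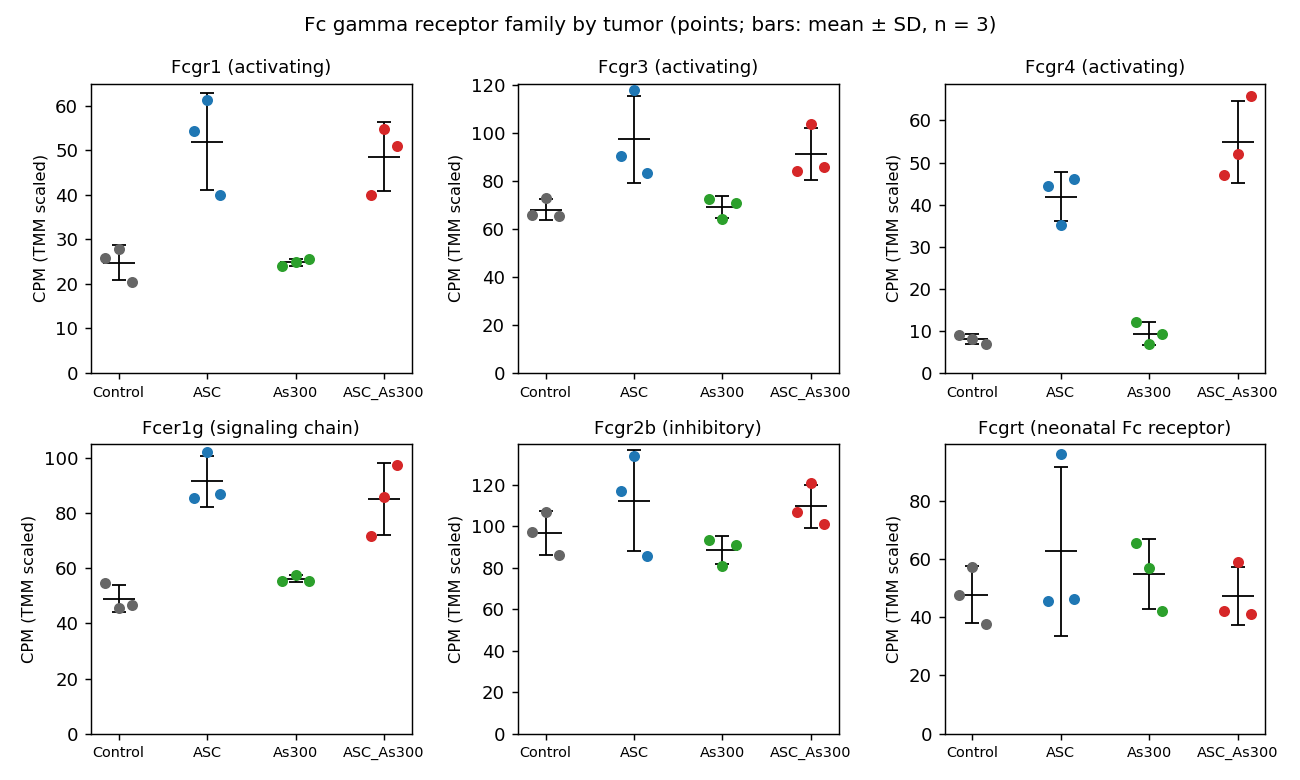
Each panel plots 1 member, with CPM scaled by TMM on the vertical axis and the 4 groups on the horizontal axis. Points are tumors and bars the mean ± SD of 3 tumors. Fcgr4 lies between 35.2 and 65.8 CPM in the 6 tumors with ASC and between 6.79 and 12.1 CPM in the 6 without. Fcgrt overlaps between all groups, and Fcgr2b between all but ASC_As300 and As300.

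The ASC effect over both iAs levels, which averages the ASC difference at 0 and at 300 ppb, used all 12 tumors. Of 6 members 3 were called higher, beside 1.36% of all genes higher and 0.0865% lower, and in edgeR Fcgr4 rose by 2.47 ± 0.15, Fcgr1 by 1.02 ± 0.12 and Fcer1g by 0.75 ± 0.08 on the log2 scale (adjusted p = 2.46e-06, 0.000292 and 0.00021). Each of these calls held in all 12 fits that left out 1 tumor. Fcgr3 passed the p-value threshold at a change under 1.5-fold (0.46 ± 0.09, adjusted p = 0.0163), as 1.77% of all genes passed that threshold upward, with adjusted p-values from 0.000226 to 0.0563 over the alternatives. Fcgr2b had 0.26 ± 0.10 (unadjusted p = 0.0218 and adjusted p = 0.333 in edgeR) and Fcgrt 0.09 ± 0.20 (adjusted p = 0.930). In edgeR 5 of 6 members had an unadjusted p-value under 0.05, beside 1443 of 20818 genes higher and 825 lower. The tumors with and without ASC did not overlap for 4 of 6 members, Fcgr1, Fcgr3, Fcgr4 and Fcer1g, all higher, as was so for 1.68% of all genes, with 0.216% lower. The median log2 fold change was 0.60 over the 6 members and 0.00 over all genes.

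Within the iAs-exposed mice, ASC_As300 against As300 again had 3 members called, all higher, with 0.793% of all genes called higher and 0.0624% lower. The groups did not overlap for 5 of 6 members, all but Fcgrt, beside 11.3% of all genes higher and 8.37% lower. Fcgr4 rose 5.88-fold (log2 fold change 2.56 ± 0.21, adjusted p = 7.59e-05) and Fcgr1 1.95-fold (0.97 ± 0.17, adjusted p = 0.0138). Fcer1g was just past the threshold of the fold change (1.51-fold, 0.60 ± 0.12, adjusted p = 0.0309). Its call was lost under all 7 other settings of normalization, filter, test or fit and in 9 of 12 fits without 1 tumor. The Fcgr1 call was lost without any 1 of the As300 tumors and without ASC_As300 replicate 2 or 3, at log2 fold changes of 0.85 to 0.97, which left Fcgr4 as the one call in those 5 fits. Fcgr3 had 0.40 ± 0.12 (adjusted p = 0.251), Fcgr2b 0.31 ± 0.14 (unadjusted p = 0.0496 and adjusted p = 0.501 in edgeR) and Fcgrt -0.21 ± 0.28 (adjusted p = 0.849). An unadjusted p-value under 0.05 was found by edgeR for 5 of 6 members, beside 1317 of 20818 genes higher and 760 lower.

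iAs alone changed none of the members past the thresholds. In As300 against Control 0 of 6 were called by edgeR or by DESeq2, while edgeR called 0.701% of all genes higher and 0.355% lower. At an unadjusted p-value under 0.05 edgeR had 0 members, beside 2324 of 20818 genes higher and 2701 lower. Of the 6 members 1, Fcer1g, did not overlap between these groups and was higher in As300, beside 14.5% of all genes higher and 15.4% lower. The estimates were 0.22 ± 0.20 for Fcgr4, 0.20 ± 0.12 for Fcer1g, 0.20 ± 0.28 for Fcgrt, 0.02 ± 0.12 for Fcgr3, 0.01 ± 0.16 for Fcgr1 and -0.13 ± 0.14 for Fcgr2b on the log2 scale. For Fcgr1 2 SE on either side gave -0.32 to 0.34, and for Fcgr3 -0.22 to 0.27, which leaves out a change of 1.5-fold either way. For Fcgr4 the same range was -0.18 to 0.63 and for Fcgrt -0.36 to 0.76, so that a higher level of that size was not excluded with 3 tumors a group.

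Between ASC_As300 and ASC, 0 of 6 members were called by edgeR or DESeq2, and 0.0% of all genes were called in either direction by edgeR. At an unadjusted p-value under 0.05 edgeR had 0 members, beside 307 of 20818 genes higher and 362 lower. Fcgr4 had the largest difference upward, 0.39 ± 0.20 (unadjusted p = 0.0684, adjusted p = 1.00), with the 3 ASC_As300 tumors above the 3 ASC tumors, as was so for 4.17% of all genes, with 3.91% lower. Fcgrt had the largest downward, -0.40 ± 0.28 (adjusted p = 1.00), which became 0.05 without ASC replicate 2. For the iAs effect over both ASC levels edgeR and DESeq2 called 0 of 6 members and edgeR 0.0% of all genes, and 0 members did not overlap, beside 0.24% of all genes higher and 0.207% lower. The 1 member with an unadjusted p-value under 0.05 was Fcgr4 (0.31 ± 0.14, unadjusted p = 0.0498 and adjusted p = 0.312 in edgeR). At that unadjusted threshold edgeR had 1564 of 20818 genes higher and 1761 lower.

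Whether iAs altered the ASC effect is the interaction. It was called for 0 of 6 members by edgeR and by DESeq2, and edgeR called 0.0% of all genes. At an unadjusted p-value under 0.05 edgeR had 0 members, beside 1473 of 20818 genes upward and 1363 downward. The estimates ran from -0.61 ± 0.39 for Fcgrt (adjusted p = 0.513) and -0.31 ± 0.16 for Fcer1g (adjusted p = 0.426) to 0.17 ± 0.28 for Fcgr4 (adjusted p = 0.837). The Fcgrt estimate moved to -0.15 without ASC replicate 2 and lay between -0.83 and -0.15 over the 12 fits without 1 tumor. The ranges of 2 SE on either side included differences of 1.5-fold for Fcgr4 upward (-0.39 to 0.74) and for Fcgrt (-1.39 to 0.18) and Fcer1g (-0.63 to 0.02) downward.

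**Figure D2:**
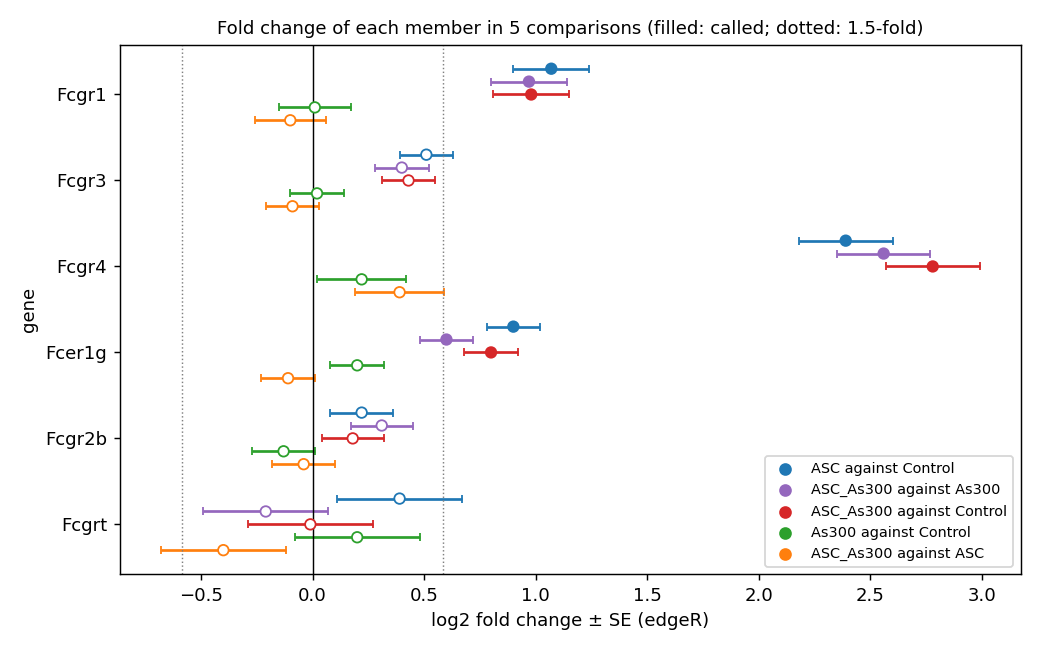
The horizontal axis gives the log2 fold change ± SE of edgeR and the vertical axis the 6 genes, with 1 color for each of 5 comparisons. Filled points were called and dotted lines mark 1.5-fold. The 3 comparisons of tumors with against without ASC lie to the right for Fcgr4, at 2.39 to 2.78, and the 2 comparisons of iAs lie between -0.40 and 0.39 for all 6 genes.

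Levels were compared between members only per kilobase of merged exons. In Control, Fcer1g had the highest level, with 56.0 ± 5.72 CPM per kb (SD, n = 3), followed by Fcgr3 at 39.2 ± 2.48, Fcgrt at 22.7 ± 4.66, Fcgr2b at 16.7 ± 1.80, Fcgr1 at 9.54 ± 1.5 and Fcgr4 at 6.38 ± 0.935 CPM per kb. The ranges of the 3 tumors overlapped between the neighbours Fcgrt and Fcgr2b and not between the other neighbours. In ASC_As300, Fcer1g (97.3 ± 14.9 CPM per kb) and Fcgr3 (52.7 ± 6.25) were still first and second, and Fcgr4, the lowest in Control, held rank 3 at 43.7 ± 7.75 CPM per kb and overlapped with Fcgr3. In ASC it held the same rank, at 33.3 ± 4.66 CPM per kb, overlapping with Fcgrt at 29.8 ± 13.8.

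The place of Fcgr2b depended on the length used, since its merged exons span 5790 bases and the median of its coding transcripts is 1520 bases. Per kilobase of the median coding transcript its mean in Control was 63.6 CPM per kb, second to Fcer1g at 72.2 and above Fcgr3 at 51.5, while Fcgr1 at 9.54 and Fcgr4 at 6.38 remained last. On that length Fcgr4 held rank 4 in ASC_As300, with 43.7 CPM per kb beside 39.8 for Fcgrt. In ASC its 33.3 CPM per kb lay below Fcgrt at 52.7 and above Fcgr1 alone, at 20.1.

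The balance of activating and inhibitory receptors was described in each tumor as the log2 ratio of CPM over Fcgr2b, a quantity to be compared between tumors and not between genes. For Fcgr4 it was -3.41, -3.72 and -3.66 in Control and -1.40, -1.93 and -0.90 in ASC. It was -2.95, -3.57 and -3.31 in As300 and -1.19, -1.22 and -0.62 in ASC_As300. There were thus 7.58 to 12.9 counts of Fcgr4 for each 100 of Fcgr2b in the 6 tumors without ASC and 26.2 to 65.0 in the 6 with ASC.

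For Fcgr1 the ratio was close within groups, at -1.91, -1.94 and -2.08 in Control and -1.11, -1.13 and -1.10 in ASC. It was -1.96, -1.69 and -1.83 in As300 and -1.42, -1.14 and -0.99 in ASC_As300, and the 6 tumors with ASC again did not overlap with the others. The ratio of Fcer1g ran from -1.23 to -0.49 without ASC and from -0.58 to 0.02 with ASC, and that of Fcgr3 from -0.55 to -0.33 and from -0.37 to -0.04. Both pairs of ranges overlapped, for Fcer1g because As300 replicate 2 lay above ASC_As300 replicate 1. The difference between the means with and without ASC was thus larger for Fcgr4 and Fcgr1 than for Fcer1g and Fcgr3. The tumors with and without ASC were thus separate for 2 of the 4 ratios, both higher with ASC, while of the ratios of all other tested genes over Fcgr2b 0.841% were separate and higher and 1.97% separate and lower.

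**Figure D3:**
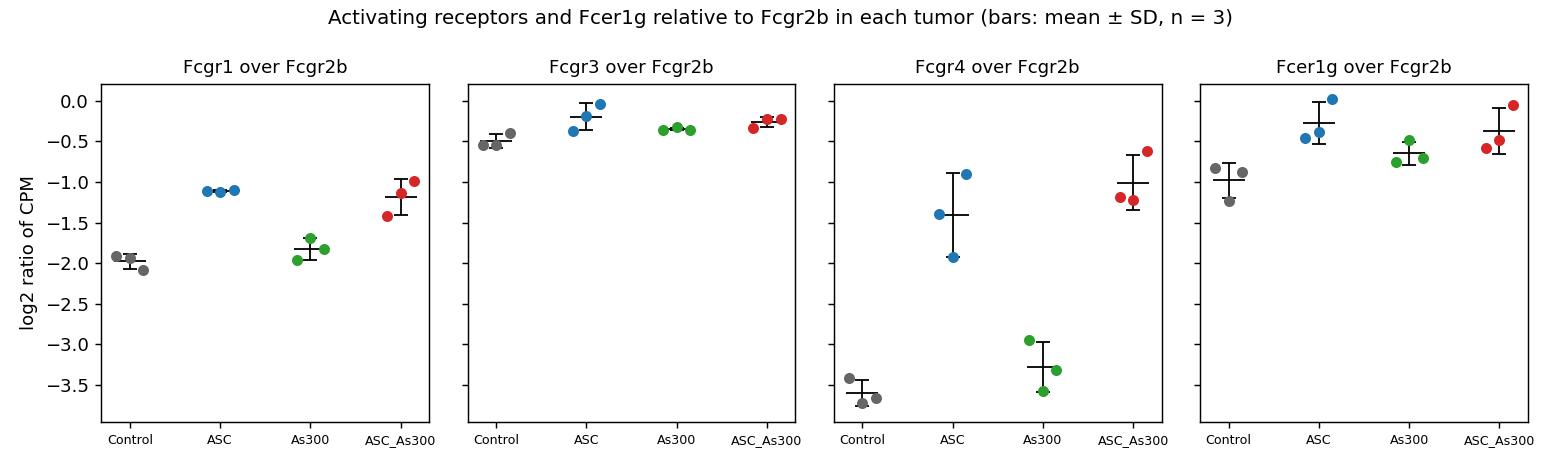
The vertical axis of each panel is the log2 ratio of CPM of Fcgr1, Fcgr3, Fcgr4 or Fcer1g over the inhibitory Fcgr2b, the horizontal axis the 4 groups, the points are tumors and the bars the mean ± SD of 3. For Fcgr4 the tumors without ASC lie between -3.72 and -2.95 and those with ASC between -1.93 and -0.62.

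The receptors are borne mainly by macrophages in tumors, and the levels of 18 macrophage markers were set beside them. Of the 18 markers 4 were called higher in ASC against Control, C1qa, C1qb and C1qc, which encode the complement component that recognizes bound IgG, and Aif1. In the ASC effect over both iAs levels 2 were called higher, C1qb (0.61 ± 0.09, adjusted p = 0.00213) and Aif1 (0.92 ± 0.12, adjusted p = 0.000828), and Adgre1, which encodes F4/80, had 0.48 ± 0.14 (adjusted p = 0.141). The median log2 fold change of the list was 0.24, beside 0.60 for the 6 receptor genes. In As300 against Control 1 of the 18 was called higher, Cd14 (0.59 ± 0.11, adjusted p = 0.0404), and this call was lost without Control replicate 1.

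In Control the macrophage markers had a mean log2 CPM of 5.53 to 6.0 and in As300 of 5.71 to 5.92. With ASC the mean was 5.87 to 6.45, and with ASC and iAs 5.98 to 6.27, so that the groups overlapped. None of the 18 was at 0 in any tumor. Relative to this mean, Fcgr4 stood at -2.97 to -2.33 in the 6 tumors without ASC and -1.31 to 0.06 in the 6 with ASC, on the log2 scale. Fcgr1 stood at -1.33 to -1.06 and -0.66 to -0.31, and Fcer1g at -0.49 to 0.14 and 0.16 to 0.63. These 3 genes did not overlap between tumors with and without ASC after the macrophage mean was subtracted, whereas Fcgr3 (0.16 to 0.50 and 0.31 to 0.51), Fcgr2b (0.63 to 0.90 and 0.55 to 0.76) and Fcgrt (-0.40 to 0.12 and -0.68 to 0.14) did. By the same measure 0.749% of all genes tested were separate and higher with ASC and 2.49% separate and lower.

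Markers of other cells were read in the same way, and their part in the receptor levels was not tested. In the ASC effect edgeR had 1443 of 20818 genes higher and 825 lower at an unadjusted p-value under 0.05. Of 8 NK cell markers 2 were called higher in the ASC effect, Klre1 and Klrk1, and their mean log2 CPM was 1.01 to 1.26 in ASC and 1.21 to 1.75 in ASC_As300, against 0.09 to 1.01 in Control and -0.15 to 0.55 in As300. Of 7 neutrophil markers tested 0 were called by edgeR in the ASC effect, with 3 at an unadjusted p-value under 0.05 and 1, Csf3r, called by DESeq2. Their mean was -0.95 to 0.47 in Control and -1.23 to -0.74 in As300, against -0.37 to 0.36 in ASC and -0.72 to 0.12 in ASC_As300, and the granule genes Mpo and Camp were at 0 in 11 and 7 of 12 tumors. Of 9 dendritic cell markers 2 were called higher in the ASC effect, Itgax and Batf3, with means of 0.79 to 2.03 in Control and 1.16 to 1.31 in As300, against 1.74 to 2.13 in ASC and 1.59 to 1.98 in ASC_As300.

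Of 8 mast cell markers 0 were called by edgeR or DESeq2 in the ASC effect, with 3 at an unadjusted p-value under 0.05. Their mean was 0.91 to 1.06 in Control and 0.72 to 1.64 in As300, against 1.27 to 1.89 in ASC and 0.82 to 2.24 in ASC_As300, so that ASC lay above Control while the tumors with and without ASC overlapped. Of 10 T cell markers 1, Cd8a, was called higher in the ASC effect, and 8 without Control replicate 1. Their mean was 0.5 to 3.17 in Control and 0.35 to 1.0 in As300, against 2.4 to 2.76 in ASC and 2.27 to 2.81 in ASC_As300.

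Control replicate 1 stood apart from the other tumors, with a mean log2 CPM of 8 B cell markers of 4.68 against -2.05 to 0.81 in the other 11. B cells carry Fcgr2b, and its level in this tumor, 97.0 CPM, lay between those of the other Control tumors. Without Control replicate 1 the ASC effect was 2.52 ± 0.16 for Fcgr4, 1.03 ± 0.13 for Fcgr1 and 0.79 ± 0.09 for Fcer1g (edgeR adjusted p = 4.43e-06, 0.000777 and 0.000238), so that the same 3 members were called. Skeletal muscle markers were high in Control replicate 2 and As300 replicate 1, with mean log2 CPM of 7.66 and 7.53, and no member's call in the ASC effect was lost without either. In the ASC effect 0 of 8 B cell, 7 plasma cell, 4 platelet, 8 endothelial, 10 stromal, 6 muscle and 3 lymph node markers were called by edgeR or DESeq2, with 2, 1, 0, 2, 1, 0 and 1 of them at an unadjusted p-value under 0.05 in edgeR. The count of plasma cell markers rested on Control replicate 1, without which 2 of 7 were called higher by edgeR, Igkc and Jchain. The share of all genes called without this tumor is not reported here. Counts of listed genes called or lost without it, here and elsewhere, can therefore not be read as particular to their lists. Of 8 epithelial markers 1, Krt8, was called lower (-2.03 ± 0.34, adjusted p = 0.00632).

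The ligands of these receptors are IgG molecules, and the transcripts of their chains were read from the same tumors. Ighg2c, the heavy chain of IgG2c, was at 24.0, 0 and 0.369 CPM in Control and at 3.06, 10 and 10.5 CPM in ASC. It was at 0, 0.286 and 0.106 CPM in As300 and at 8.97, 2.41 and 24.4 CPM in ASC_As300. Outside Control replicate 1, every tumor with ASC was thus above every tumor without. Of 8 immunoglobulin genes tested 0 were called by edgeR in the ASC effect with all 12 tumors, and 1 had an unadjusted p-value under 0.05, Ighg2c (adjusted p = 0.303), while DESeq2 called 1, Ighg3, which was at 0 in 7 of 12 tumors. Without Control replicate 1, a setting chosen after these values were seen, 4 were called higher: Ighg2c (adjusted p = 0.00362), Ighg2b (0.0128), Igkc (0.00483) and Jchain (0.0136).

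Ighg2b was at 31.8, 1.25 and 0.564 CPM in Control, 2.89, 7.80 and 2.59 CPM in ASC, 0.851, 0.348 and 0.141 CPM in As300, and 3.52, 3.14 and 2.37 CPM in ASC_As300. Ighg1 was high in Control replicate 1 alone, at 28.9 CPM, and at most 0.256 CPM in each of the other 11 tumors. The sum of the 4 IgG heavy chains was 86.9 CPM in Control replicate 1 and 0.247 to 1.32 CPM in the other tumors without ASC. It was 6.60 to 17.8 CPM in the ASC tumors and 5.55 to 28.3 CPM in the ASC_As300 tumors. Control replicate 1 was thus the highest of the 12 in IgG transcripts. Its Fcgr4 level, 9.13 CPM, was the highest of the 3 Control tumors and below every tumor with ASC. Whether IgG bears on the receptor levels was not tested, and IgG protein was not measured.

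**Figure D4:**
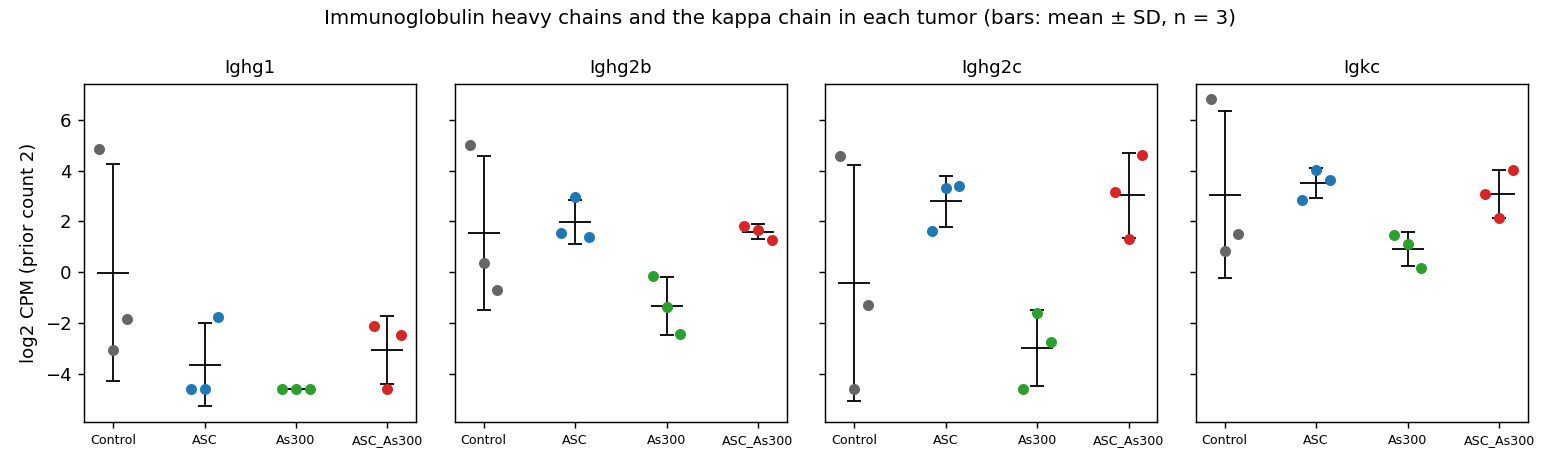
The vertical axis gives log2 CPM with a prior count of 2 for the heavy chains Ighg1, Ighg2b and Ighg2c and the kappa chain Igkc, and the horizontal axis the 4 groups. Points are tumors and bars the mean ± SD of 3, and the lowest points of Ighg1 and Ighg2c are tumors with 0 counts. Control replicate 1 is the highest tumor for Ighg1, Ighg2b and Igkc.

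Signals of the activating receptors pass through Src family kinases, Syk and adaptor proteins. Of 20 genes of this route 2 were called higher in the ASC effect and 0 lower, with a median log2 fold change of 0.31. Among them was Lcp2 (0.72 ± 0.14, adjusted p = 0.0182), the adaptor SLP-76. Of those not called, Fgr had 0.67 ± 0.18 (adjusted p = 0.0946), Lyn 0.36 ± 0.11 (adjusted p = 0.172) and Vav1 0.43 ± 0.16 (adjusted p = 0.303), and Syk itself 0.12 ± 0.11 (adjusted p = 0.771). Without Control replicate 1 the count was 6 of 20, with Fgr, Grap2, Rac2 and Was added, again without the share of all genes beside it.

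Of 14 inhibitory receptors and phosphatases 3 were called higher in the ASC effect and 0 lower, with a median of 0.42. The calls were Clec12a (1.14 ± 0.12, adjusted p = 0.000151), Cd300lf (0.97 ± 0.14, adjusted p = 0.00182) and Pirb (0.73 ± 0.15, adjusted p = 0.0225), receptors with ITIM of myeloid cells. Clec12a was at 14.7, 12.3 and 10.6 CPM in Control, 25.3, 25 and 21.6 CPM in ASC, 10.4, 8.12 and 12.9 CPM in As300, and 25.3, 27.6 and 27.2 CPM in ASC_As300, without overlap between tumors with and without ASC. Sirpa (0.39 ± 0.07, adjusted p = 0.0064) and Cd300a (0.57 ± 0.11, adjusted p = 0.0212) passed the p-value threshold under 1.5-fold, and Ptpn6, which encodes the phosphatase SHP-1, had 0.73 ± 0.18 (adjusted p = 0.0735). Inpp5d, which encodes SHIP-1, the phosphatase that the inhibitory Fc receptor recruits, had 0.34 ± 0.13 (adjusted p = 0.317). In ASC_As300 against Control 4 of 14 were called higher, Clec12a, Cd300lf, Cd300a and Dok1. In the ASC effect DESeq2 called Ptpn6 and Siglece in addition, with all tumors. Without Control replicate 1 edgeR called Ptpn6 in the ASC effect as well (0.99 ± 0.09, adjusted p = 7.32e-05), and the 3 calls of that effect remained.

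Receptors that use the gamma chain or related adaptors, and those adaptors, were not called in the ASC effect. The count was 0 of 13 tested by edgeR and 0 by DESeq2, with a median of 0.34. Tyrobp had 0.49 ± 0.09 (adjusted p = 0.0116), under 1.5-fold, Pira2 0.56 ± 0.24 (adjusted p = 0.404) and Clec4e 0.63 ± 0.32 (adjusted p = 0.531). Of the 13, 2 had an unadjusted p-value under 0.05, Tyrobp and Pira2. Without Control replicate 1 the signaling chain Cd247 was called higher (1.52 ± 0.29, edgeR adjusted p = 0.0141). B2m, the partner of Fcgrt, rose by 0.95 ± 0.08 (adjusted p = 1.53e-05), from 561 to 689 CPM in Control to 1150 to 1210 CPM in ASC, while Fcgrt was not called.

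Among 11 other Fc receptor genes tested, 1 was called higher and 1 lower in the ASC effect. Trim21, an antibody receptor of the cytosol, rose by 1.16 ± 0.15 (adjusted p = 0.000779) and was at 7.23, 7.69 and 6.31 CPM in Control and 16.4, 16.6 and 12.4 CPM in ASC. Fcrls, a receptor-like gene of resident macrophages, fell by 1.07 on the log2 scale (SE 0.19, adjusted p = 0.0106). It was at 70.5, 89.4 and 53.2 CPM in Control, 38.7, 48.0 and 26 CPM in ASC, 64.6, 91.5 and 94.3 CPM in As300, and 34.2, 48.5 and 24.6 CPM in ASC_As300, the opposite direction to Fcgr4 in the same tumors. Fcer2a (-2.87 ± 1.07, adjusted p = 0.313), Fcrl6 (-0.72 ± 0.45, adjusted p = 0.632) and Fcrla (-1.05 ± 0.99, adjusted p = 0.788) were the next by p-value. Their estimates depended on Control replicate 1, without which they were -0.70 ± 0.77 for Fcer2a, -0.53 ± 0.48 for Fcrl6 and, with the direction turned, 1.96 ± 0.65 for Fcrla (adjusted p = 0.826, 0.768 and 0.208).

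Of 17 cytokine, cytokine receptor and transcription factor genes known to set Fc receptor levels, 6 were called higher in the ASC effect and 0 lower, with a median of 0.32. Irf1, an interferon-induced transcription factor, rose by 1.57 ± 0.09 (adjusted p = 1.37e-06). Ifng itself rose by 3.63 ± 0.57 (adjusted p = 0.00385) from low counts, 0.103, 0.230 and 0.0868 CPM in Control, 0.300, 0 and 0.406 CPM in As300, and 1.72 to 3.52 CPM in the 6 tumors with ASC. Also called were Socs1 (1.10 ± 0.13, adjusted p = 0.000312), a feedback inhibitor, Il10ra (0.86 ± 0.15, adjusted p = 0.00924) and Irf8 (0.69 ± 0.16, adjusted p = 0.0477).

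Spi1, which encodes PU.1, had 0.45 ± 0.09 (adjusted p = 0.0216), under 1.5-fold, in the ASC effect. Il4ra had 0.32 ± 0.10 (adjusted p = 0.172) and Jak2 0.20 ± 0.09 (adjusted p = 0.425). In As300 against Control 2 of the 17 were called higher, Cebpb (1.09 ± 0.15, adjusted p = 0.0356) and Tgfb1 (0.63 ± 0.08, adjusted p = 0.0356), and neither call remained without Control replicate 1. Cebpb was not particular to iAs. It was also called higher by edgeR in ASC (0.80 ± 0.15, adjusted p = 0.0278) and in ASC_As300 (0.75 ± 0.15, adjusted p = 0.0336), each against Control. The interaction was called downward for Cebpb and Tgfb1 by DESeq2 and for neither by edgeR.

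Of 19 effector genes of phagocytosis and inflammation 2 were called higher in the ASC effect and 0 lower, with a median of 0.30. Cybb, the catalytic subunit of the phagocyte oxidase, rose by 1.03 ± 0.14 (adjusted p = 0.0015), and Itgb2, the integrin chain of complement receptor 3, by 0.81 ± 0.13 (adjusted p = 0.00441). Rab5c (0.25 ± 0.06, adjusted p = 0.0735), Tnf (1.12 ± 0.28, adjusted p = 0.0765) and Arpc1b (0.18 ± 0.06, adjusted p = 0.200) were not called. Cyba, the partner of Cybb, was called in As300 against Control (0.72 ± 0.13, adjusted p = 0.0401) and had 0.25 ± 0.09 (adjusted p = 0.283) in the ASC effect. Without Control replicate 1 the count of the ASC effect was 5 of 19, with Coro1a, Fcho1 and Tnf added, and the As300 call of Cyba was lost.

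**Figure D5:**
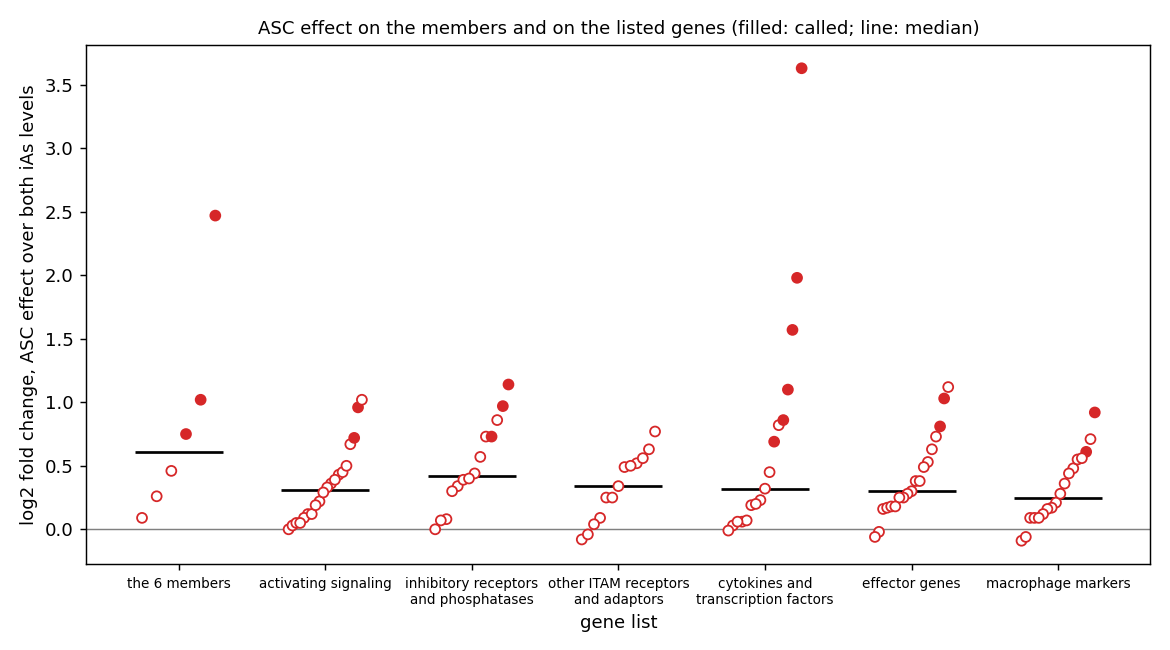
The vertical axis is the log2 fold change of the ASC effect over both iAs levels and the horizontal axis the gene lists, with a point for each gene tested, filled where called, and a line at the median. The members have a median of 0.60 and the 6 lists drawn have medians of 0.24 to 0.42, and Fcgr4 at 2.47 is exceeded by Ifng at 3.63 alone.

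The genes whose log2 CPM followed each member most closely over the 12 tumors were listed as a description, without a test, since tumors of a group and their depth are common to all of them. For Fcgr4 these were Gbp2 (Pearson r = 0.990), Gm12185 (0.987), Batf2 (0.985), H2-T22 (0.985) and Tgtp1 (0.984). For Fcgr1 they were Ctss (0.982), P2ry14 (0.978), Ly86 (0.974), Parp12 (0.973) and Lgals3bp (0.970), and for Fcer1g Ifi35 (0.974), H2-T23 (0.969), Tapbp (0.963), H2-D1 (0.961) and H2-T22 (0.951). The list of Fcgr4 thus holds interferon-inducible GTPases (Gbp2, Tgtp1), and that of Fcer1g genes of antigen presentation (Tapbp, H2-D1).

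For Fcgr3 the closest genes were Tmem106a (0.956), Cmpk2 (0.949), Lgals3bp (0.948), Ifi204 (0.935) and Ifi211 (0.933). For Fcgr2b they were Slc37a2 (0.956), Cd300ld5 (0.948), Cd300ld3 (0.947), Cd300ld4 (0.947) and Cd84 (0.945), and for Fcgrt Pltp (0.951), Folr2 (0.943), Slc4a4 (0.937), Htra3 (0.927) and Cbr2 (0.927). Folr2 and Cbr2 are known from resident macrophages. Among the members themselves r over the 12 tumors was 0.91 to 0.94 between Fcgr1, Fcgr4 and Fcer1g, 0.57 between Fcgr4 and Fcgr2b, and 0.03 between Fcgr4 and Fcgrt.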

How the data were processed

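RNA of 12 tumors was analysed from 1 table, in which the authors deposited whole-number counts per Ensembl gene without normalization. According to the study's methods, paired-end reads of TruSeq stranded libraries were trimmed with Cutadapt, aligned with HISAT2 and quantified with StringTie and Ballgown. The submitters' processing notes name cutadapt 1.1.0, HISAT2 2.0 and StringTie 1.3.4. The step that made the counts, the strand setting, the genome build and the annotation are not given in the sources used here. Small counts pile up at multiples of 4, and how many counts a read pair gave is not known. Counting does not separate near-identical sequence of Fcgr2b and Fcgr3. Total counts ran from 39157647 to 55168642 per tumor.

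Gene symbols, positions and lengths came from GENCODE M21 (GRCm38) and promoters from RefSeq. Symbols matched 55141 of 55401 identifiers. With edgeR 4.0.16 in R 4.3.3, genes were filtered with filterByExpr, scaled by TMM (factors 0.9535 to 1.054), and fitted by quasi-likelihood, each group having its own mean, over all 12 tumors. Adjusted p-values cover 20818 genes. SE is the absolute log2 fold change divided by the square root of F. CPM values are TMM scaled, and log2 CPM carries a prior count of 2. The p-values set each difference between group means against the spread between tumors, whose estimate borrows from all genes.

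The text names all members, every called gene of a pathway list with up to 3 others by p-value, and the 5 genes most like each member, except that some listed genes are counted but not reported here by name. Syk, Inpp5d, Adgre1, Ighg1, Ighg3, Csf3r and the other cell type markers were named after their values were seen. The members and lists were chosen with earlier results of these data known. Alternatives were DESeq2 1.42.0 (Wald test, size factors), other filters, no minimum fold change, unadjusted p-values, only the compared groups, a replicate block, counts divided by 4, a prior count of 0.5 and leaving out each tumor. The procedure was tested on simulated data. No columns were left out. Figures were drawn with matplotlib 3.10.9.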

Additional observations from a re-analysis of the deposited data

How the results depend on the processing

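The ASC effect over both iAs levels and ASC against Control had 3 members called in every fit without 1 tumor, and ASC_As300 against Control 2 to 3. In ASC_As300 against As300 the number called lay between 1 and 3 without 1 tumor, since Fcgr1 and Fcer1g lie near the thresholds, and it was 1 without As300 replicate 1, 2 or 3 and without ASC_As300 replicate 2 or 3. No other setting moved a count of members called by over 1.5 times. No direction reversed under another normalization, filter, test or scaling of the counts. Leaving out 1 tumor reversed only log2 fold changes that were not called. These ranges were -0.09 to 0.13 for Fcgr1, -0.01 to 0.10 for Fcgr3 and 0.00 to 0.40 for Fcgr4 in As300 against Control. In ASC_As300 against ASC they were -0.25 to 0.04 for Fcgr1, -0.19 to 0.11 for Fcgr2b, -0.20 to 0.07 for Fcgr3, -0.22 to 0.00 for Fcer1g and -0.60 to 0.05 for Fcgrt. In the iAs effect they were -0.12 to 0.03 for Fcgr1, -0.08 to 0.05 for Fcgr3, -0.01 to 0.11 for Fcer1g and -0.19 to 0.12 for Fcgrt. In the interaction they were -0.26 to 0.03 for Fcgr1, -0.07 to 0.24 for Fcgr2b, -0.25 to 0.05 for Fcgr3 and -0.01 to 0.39 for Fcgr4. For Fcgrt the range was -0.06 to 0.60 in ASC against Control, -0.19 to 0.16 in ASC_As300 against Control and -0.13 to 0.18 in the ASC effect. The cause was not tested. Over the 6 members and 8 comparisons, 934 of the alternative values kept direction and side of the threshold, 30 reversed, 25 lost and 1 gained a call.

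The sample labels do not say whether the replicate numbers pair the tumors, and the main fit treated them as unpaired. Of 18 same-numbered pairs 2 had deviations correlated above 0.1 (-0.124 to 0.172). Correlations over all genes cannot decide whether some tumors shared a batch. With the replicate block 3 members were called in ASC, in ASC_As300 against Control and in the ASC effect, 2 in ASC_As300 against As300, where Fcer1g was lost, and 0 in the others. Over all genes the block gave 270 higher and 15 lower calls in the ASC effect beside 283 and 18 without it. The DESeq2 Wald test gave 373 higher and 77 lower calls over all genes in ASC against Control beside 147 and 3 in edgeR, 495 and 321 beside 146 and 74 in As300, 317 and 73 beside 163 and 5 in ASC_As300, and 308 and 91 beside 165 and 13 in ASC_As300 against As300. It gave 393 and 85 beside 283 and 18 in the ASC effect, and, beside 0 and 0, 4 and 7 in ASC_As300 against ASC, 30 and 84 in the iAs effect and 29 and 145 in the interaction. With 3 tumors a group, 2 SE on either side of the log2 fold change with iAs reached 0.63 and 0.79 for Fcgr4, and 0.76 and -0.96 for Fcgrt, in As300 against Control and in ASC_As300 against ASC, so that changes past 1.5-fold were not resolved for these genes.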
